A study of Homo sapiens with 12 samples.

Results

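DNA replication depends on many proteins besides the replicative helicase itself, and the 46 genes described here encode such factors. They were chosen by gene symbol from a fixed list covering origin licensing, origin firing, the replicative DNA polymerases, the sliding clamp and its loaders, the single-strand binding protein RPA, Okazaki fragment processing, fork protection and chromatin assembly. The subunits of the CMG helicase (the MCM2 to MCM7 proteins, the GINS proteins and CDC45) were left out by that rule. All 46 symbols were found among the 46863 rows of the count table, and all 46 were among the 16835 genes kept after removal of low counts. No member was near the lower end of counting, since the smallest count of any member in any library was 52 (POLE2 with Ento+AZD, replicate 2).

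RNA was sequenced from SU-DHL-4, an established human cell line of germinal centre B-cell-like diffuse large B-cell lymphoma with no engineered change named in the labels. Cells were exposed for 72 h to the solvent DMSO, to 1 µM Entospletinib (Ento), to 0.01 µM AZD5153 (AZD), or to both agents at these doses (Ento+AZD). Ento inhibits the kinase SYK, which passes on signals of the B-cell receptor. AZD is a bivalent inhibitor of BET proteins, chromatin readers that promote transcription. Each group held 3 libraries with the numbers 1 to 3, and values of a group are given below in that order. The study's methods speak of biologically independent samples in general, without saying how the 3 libraries of a group were cultured, so p-values measure the spread between these libraries, and all of them come from 1 cell line at 1 time point.

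As background, replication origins are licensed in G1 phase. The origin recognition complex (ORC) binds the origin, CDC6 and CDT1 join it, and the MCM helicase is loaded. In S phase the kinase CDC7 with its partner DBF4 and a set of firing factors activate the loaded helicase, polymerase alpha-primase lays the primers, and polymerases epsilon and delta extend them on the leading and lagging strands. PCNA is the ring that holds the polymerases on DNA, and replication factor C (RFC) loads it. Transcription of many of these genes is periodic and is driven by E2F factors as cells enter S phase, so the mRNA level of a culture tends to follow the share of its cells that are cycling. In bulk RNA, fewer cells in S phase and less RNA per cell cannot be told apart.

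Because E2F control is the textbook regulatory feature of the family, the promoters were searched for it, and 4 stretches are shown as examples of what these sites look like in members that behaved differently. RefSeq promoters (250 bases before to 50 after the start, GRCh38.p14) were at hand for 40 of the 46 members. The letters searched on both strands were TTTCCCGC, TTTGGCGC, TTTCGCGC and TTTGCCGC. The stretches below are those of the members with the smallest p with Ento+AZD whose site lies before the start and whose stretch touches no annotated exon. They read 5′ to 3′ along the strand of the gene with the matched letters in capitals. These conditions left out members with a site and a smaller p, such as POLE2 and CDC6. POLE4 had the largest p of all members with a site (adjusted p = 0.129, quasi-likelihood test). CDT1 lies at chr16:88803718-88803788 on the plus strand, PCNA at chr20:5126638-5126717 on the minus strand, POLA1 at chrX:24693745-24693824 on the plus strand and POLE4 at chr2:74958576-74958642 on the plus strand.
CDT1: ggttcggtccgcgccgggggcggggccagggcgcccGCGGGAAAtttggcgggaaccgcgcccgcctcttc
PCNA: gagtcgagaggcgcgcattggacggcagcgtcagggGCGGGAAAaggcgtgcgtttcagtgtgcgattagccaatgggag
POLA1: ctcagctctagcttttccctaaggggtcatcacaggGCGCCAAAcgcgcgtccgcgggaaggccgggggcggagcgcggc
POLE4: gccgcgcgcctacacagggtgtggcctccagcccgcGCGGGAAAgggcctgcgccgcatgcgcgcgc
Counted from the start of transcription, the capitals begin at position −35 in CDT1, −59 in PCNA, −137 in POLA1 and −31 in POLE4. CDT1, PCNA and POLE4 hold the same 8 letters, GCGGGAAA, and POLA1 holds GCGCCAAA.

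At least 1 such site was found in 13 of the 40 member promoters (32.5%), namely those of ORC3, CDC6, CDT1, TOPBP1, POLA1, POLA2, POLE, POLE2, POLE4, PCNA, RFC3, LIG1 and CLSPN. It was found in 3.33% of all 27305 promoters of the same length and in 5.33% of those of the 10473 tested genes. Members with and without a site had close medians. Only these exact letters were counted, so other forms of the site may occur in members without a match and also beside a match. The medians therefore cannot show whether such sites matter. The median log2 fold change with Ento+AZD against DMSO was −0.83 over the 13 members with a site and −0.80 over the 27 without, and the range of the former ran from CDT1 at −2.34 to POLE4 at 0.26. A CCAAT box (CCAAT on either strand) was present in 52.5% of member promoters, 35.7% of all promoters and 37.1% of those of tested genes. A CHR element (TTTGAA or TTCGAA on either strand), the cell cycle element of genes of G2 phase and mitosis, was present in 1 of the 40 (2.5%), that of DBF4. It was present in 16.6% of all promoters and 11.7% of those of tested genes. Each motif was counted on its own, whether or not its match overlapped that of another. These are matches of letters in a window and say nothing of the binding of a factor.

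The libraries held between 18121993 and 24675830 counts, so that 1 count corresponds to 0.0393 to 0.0564 CPM, the unit of expression used here (counts per library size, brought to a common total and scaled by the TMM method). The B-cell identity of the samples was checked with 7 markers (MS4A1, CD79A, CD79B, PAX5, CD22, BCL6 and MME), all of which exceeded 10 counts. Of 9 markers of T cells, monocytes, red cells, fibroblasts and epithelium, CD3E exceeded 10 counts and 3 (CD3D, CD2 and HBB) had no count in any library. The summed level of these 9 stayed between 0.858 and 2.50 CPM over the 12 libraries.

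Per kilobase of the canonical GENCODE transcript, the most abundant members with DMSO were PCNA at 131 ± 28.8 CPM per kb (SD, n = 3) and POLD2, the scaffold subunit of polymerase delta, at 131 ± 18.8 CPM per kb. They were followed by POLD4 at 106 ± 38.7, POLE3 at 74.8 ± 4.70 and RFC3 at 74.7 ± 8.45 CPM per kb. The lowest levels on this scale were those of CLSPN at 4.58 ± 1.19, CHAF1B at 4.83 ± 1.90 and ORC4 at 5.10 ± 0.494 CPM per kb. Neighbours in the order of all 46 differed by less than the larger of their SDs, except TOPBP1 at 68.9 ± 8.35 above RPA1 at 45.9 ± 4.62 and PRIM2 at 9.52 ± 2.54 above DNA2 at 6.63 ± 1.72 CPM per kb. The levels below are CPM and are compared between groups within a gene.

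Libraries with the number 3 were the highest for this family in every group, and those with the number 2 the lowest in the exposed groups, while with DMSO the numbers 1 and 2 were close. Relative to the mean of its group on the log2 scale, the median member was 0.33 higher in DMSO replicate 3, 0.49 higher in Ento replicate 3, 0.26 higher in AZD replicate 3 and 0.40 higher in Ento+AZD replicate 3. With the number 2 it deviated by −0.16, −0.53, −0.39 and −0.52 in these groups. Libraries with the number 1 deviated by −0.17 to 0.11. The median over all genes tested stayed within 0.014 of 0 in each of the 12 libraries. The median member therefore shifted with the replicate number, but not every member did so. POLD4, for example, was lowest in replicate 3 of each group. The spread within a group can be large: the DMSO libraries alone ranged from 53.5 to 124 CPM for CDT1. The tests below contain the replicate number as a term, after the batch term of the model in the study's methods, and they compare libraries of the same number. Without that term most calls were lost, and those counts are given beside the results.

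**Figure D1:**
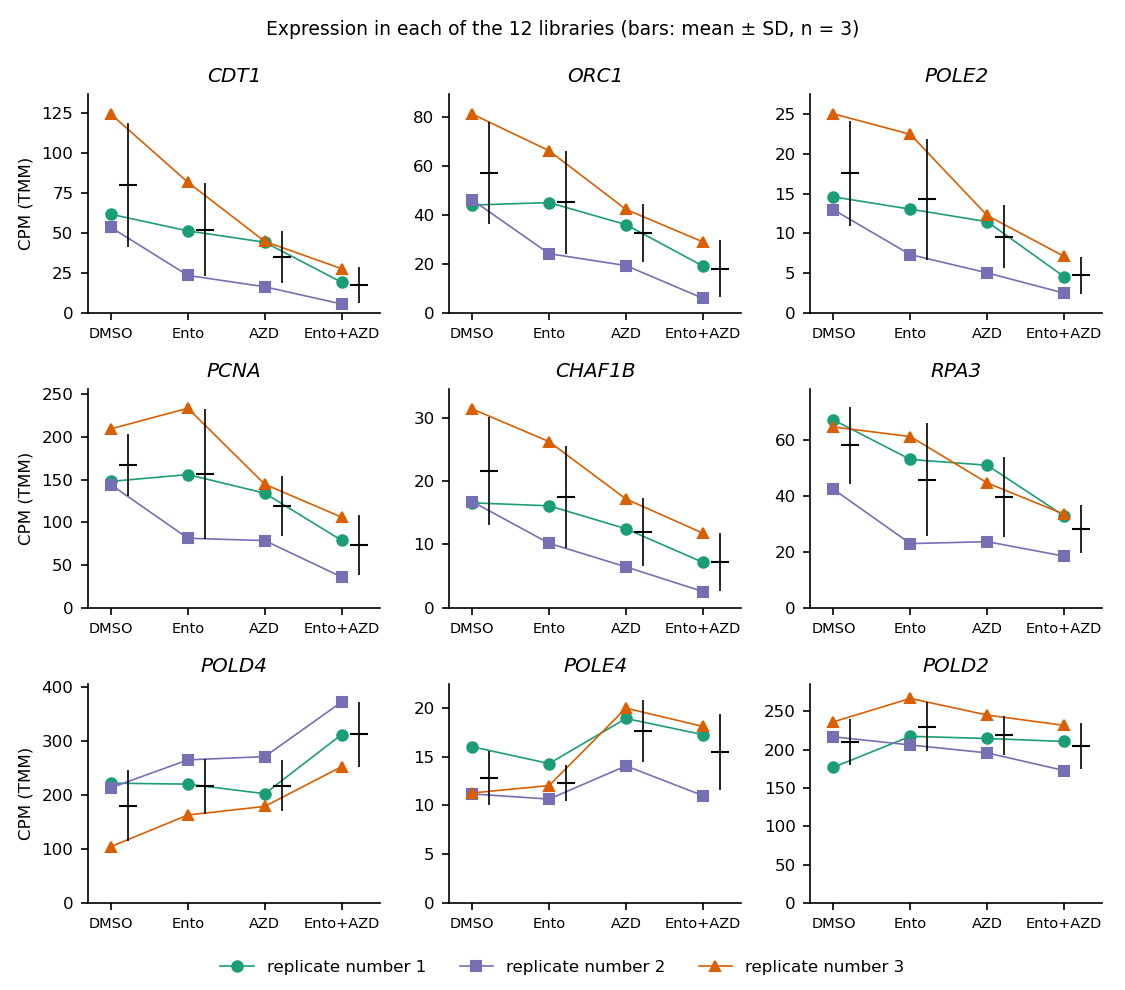
Expression (CPM, TMM-normalised, vertical axes from 0) of 9 members in the 12 libraries, with a colour and a symbol for each replicate number joined by a line across DMSO, Ento, AZD and Ento+AZD, and bars for the mean ± SD (n = 3). CDT1, ORC1, POLE2, PCNA, CHAF1B and RPA3 ended lower with Ento+AZD in all 3 numbers, with replicate 2 lowest throughout the exposed groups, whereas POLD4 ended higher and POLD2 overlapped between groups.

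Most of the family was lower after simultaneous exposure to Ento and AZD. Against DMSO, 36 of the 46 members were lower with an adjusted p below 0.05, compared with 20.8% of all genes tested, and 1 member, POLD4, was higher, compared with 19.2%. The median log2 fold change of the members was −0.85 and that of all genes tested 0.01. At a fold change above 2 (absolute log2 fold change above 1), the DEG threshold, 17 members were lower, against 4.89% of all genes. Within replicate numbers, 36 members were lower with Ento+AZD in 3 of 3 numbers (29.8% of all genes), and in 28 the Ento+AZD libraries lay below all DMSO libraries (20.0% of all genes). The 36 members lower in 3 of 3 numbers include ORC2 and ORC4, which were not called. They lack ORC6 and POLE, which were called lower. Without the replicate term, 10 members stayed below the threshold (ORC1, CDT1, CDC7, TOPBP1, POLD3, POLE2, RFC4, DSCC1, TIPIN and WDHD1), 8 of them as DEGs, and 1311 of the 16835 genes were lower, 495 as DEGs. POLD4 then had an adjusted p = 0.0684 (range over its alternatives 6.09e-21 to 0.0684). Leaving out any 1 library or any replicate number left 34 to 38 members lower, and 11 instead of 17 DEGs without DMSO replicate 2 or 10 without all libraries of replicate 2.

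**Figure D2:**
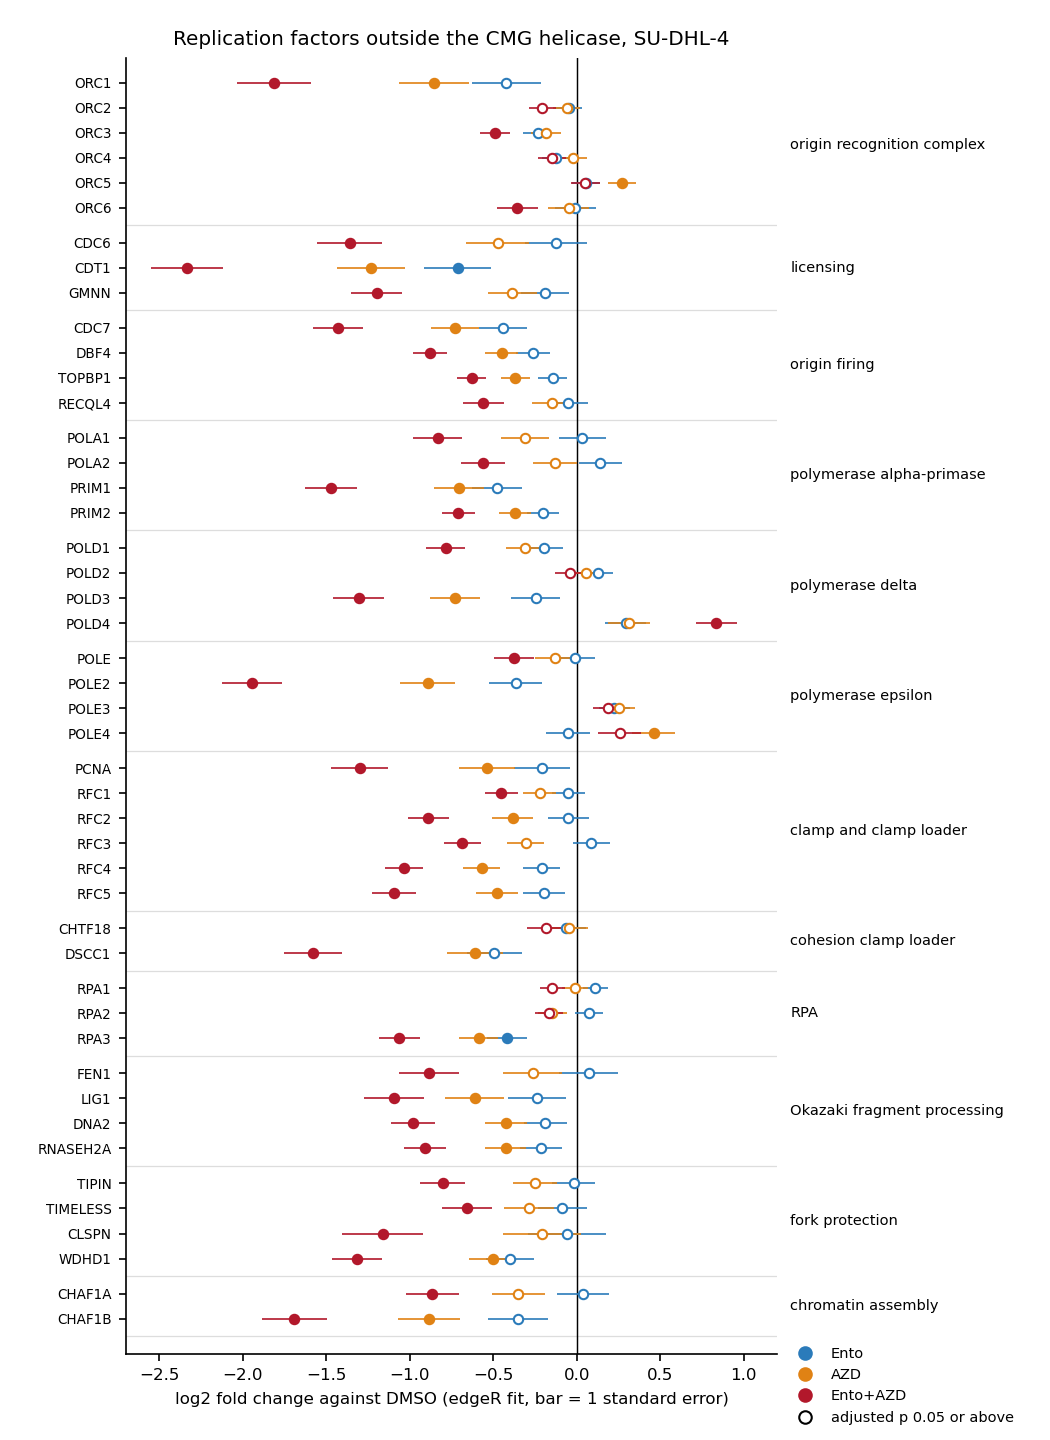
Log2 fold change against DMSO (horizontal axis) of the 46 members, grouped by role, for Ento (blue), AZD (orange) and Ento+AZD (red), with bars of 1 standard error and filled symbols where the adjusted p was below 0.05. The red symbols run from CDT1 at −2.34 to POLD4 at 0.84, and the 9 open red symbols are ORC2, ORC4, ORC5, POLD2, POLE3, POLE4, CHTF18, RPA1 and RPA2.

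The origin recognition complex was split. ORC1, its ATPase subunit whose protein level oscillates through the cell cycle (chr1:52372829-52404423), was measured at 44, 46.1 and 81.2 CPM with DMSO, 45, 24.2 and 66.2 CPM with Ento, 36, 19.3 and 42.2 CPM with AZD and 19.1, 5.96 and 29 CPM with Ento+AZD. Replicate 2 was lowest in each exposed group, and all Ento+AZD values were below all DMSO values. The change with Ento+AZD was 3.52-fold lower (log2 fold change −1.81 ± 0.22, adjusted p = 3.46e-05), and with AZD the log2 fold change was −0.86 ± 0.21, adjusted p = 0.0113. ORC3 (−0.49 ± 0.09, adjusted p = 0.000778) and ORC6 (−0.36 ± 0.12, adjusted p = 0.0327) were also lower, by less. In replicate 1 ORC6 did not fall with Ento+AZD (log2 ratio of CPM 0.0090). ORC6 did not pass without DMSO replicate 2 (adjusted p = 0.157), DMSO replicate 3 (0.0638), Ento+AZD replicate 2 (0.166) or Ento+AZD replicate 3 (0.0977), within a range of 0.00224 to 0.319 over its alternatives.

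The other subunits, ORC2, ORC4 and ORC5, did not pass the test with Ento+AZD, at log2 fold changes of −0.21 ± 0.08, −0.15 ± 0.08 and 0.05 ± 0.09. ORC2 was called lower without AZD replicate 1 (adjusted p = 0.0484) and with scaling to library totals alone (0.0214), within a range of 0.0214 to 0.291 over its alternatives. ORC5 was measured at 43.2, 39.7 and 37 CPM with DMSO, 42.5, 38.7 and 43.5 CPM with Ento, 49.3, 46.4 and 48.8 CPM with AZD and 42.5, 36.7 and 45.4 CPM with Ento+AZD. The AZD values lay above those of every DMSO library, and the Ento+AZD values overlapped them. ORC5 was higher with AZD (log2 fold change 0.27 ± 0.09, adjusted p = 0.0353). The exons of ORC4 overlap those of ACVR2A and MBD5 on the opposite strand, and since the use of the strand in counting is not given in the sources used here, its reads cannot be told from theirs.

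All 3 licensing factors fell with Ento+AZD and all 3 passed the DEG threshold. CDT1, which loads the MCM helicase onto ORC-bound DNA (chr16:88803789-88809258), had the largest fall of the family with each exposure. It was measured at 61.7, 53.5 and 124 CPM with DMSO, 51.3, 23.4 and 81.7 CPM with Ento, 44.2, 16.3 and 44.7 CPM with AZD and 19.1, 5.53 and 27.6 CPM with Ento+AZD. Every number ran downward from DMSO over Ento and AZD to Ento+AZD, and the Ento+AZD libraries stayed below every DMSO library. The fold change with Ento+AZD was 5.05-fold lower (log2 fold change −2.34 ± 0.22, adjusted p = 7.08e-06). With the single agents it was −1.23 ± 0.20, adjusted p = 0.00143 for AZD and −0.71 ± 0.20, adjusted p = 0.0409 for Ento.

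CDC6, the ATPase that joins ORC to recruit CDT1, was measured at 36.2, 46.6 and 67.6 CPM with DMSO, 47, 28.7 and 68.3 CPM with Ento, 37.5, 26.7 and 45.1 CPM with AZD and 21.6, 9.82 and 30.8 CPM with Ento+AZD. Its Ento+AZD libraries were below all DMSO libraries, with replicate 2 farthest down, while the Ento libraries overlapped DMSO. It fell 2.57-fold with Ento+AZD (log2 fold change −1.36 ± 0.20, adjusted p = 0.000122) and had −0.47 ± 0.19, adjusted p = 0.0851 with AZD. GMNN encodes geminin, the inhibitor that binds CDT1 in S and G2 phase to prevent licensing again. Its levels were 39.2, 33 and 55.5 CPM with DMSO, 37.6, 21.8 and 58.8 CPM with Ento, 38.9, 19.5 and 42.5 CPM with AZD and 21.5, 9.29 and 28.6 CPM with Ento+AZD. It fell together with its target, by 2.29-fold with Ento+AZD (log2 fold change −1.20 ± 0.15, adjusted p = 4.52e-05), with no overlap with DMSO.

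All 4 origin firing factors were lower with Ento+AZD. CDC7, the kinase that activates licensed origins, was measured at 49.3, 44.9 and 71.4 CPM with DMSO, 42.9, 24.2 and 61.2 CPM with Ento, 42.1, 20.0 and 40.8 CPM with AZD and 22.4, 12.2 and 29.7 CPM with Ento+AZD. All Ento+AZD libraries were below all DMSO libraries, and so were the AZD libraries. The log2 fold change was −1.43 ± 0.15, adjusted p = 1.41e-05 with Ento+AZD and −0.73 ± 0.14, adjusted p = 0.00369 with AZD. DBF4, its activating subunit, fell by less (log2 fold change −0.88 ± 0.10, adjusted p = 2.53e-05), although its exons overlap SLC25A40 on the opposite strand and the copy DBF4P1 took counts equal to 4.98% of those of DBF4.

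TOPBP1, a scaffold for firing and for checkpoint signalling, fell by a log2 fold change of −0.63 ± 0.09, adjusted p = 9.69e-05. RECQL4, a helicase of the RecQ family, changed least of the 4. It was measured at 64.9, 78.8 and 100.3 CPM with DMSO, 76.7, 58 and 105 CPM with Ento, 73.5, 59.1 and 89.2 CPM with AZD and 59.5, 40.2 and 68.1 CPM with Ento+AZD. The Ento+AZD value of replicate 3 lay above the DMSO value of replicate 1, so that the groups overlapped, although each number fell. RECQL4 had a log2 fold change of −0.56 ± 0.12, adjusted p = 0.00246.

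All 4 subunits of polymerase alpha-primase were lower with Ento+AZD, PRIM1 by the most. PRIM1, the catalytic primase (chr12:56730438-56752374), was measured at 42.6, 27.3 and 56.9 CPM with DMSO, 33.8, 14.5 and 48.2 CPM with Ento, 35.9, 13.1 and 30.8 CPM with AZD and 15.1, 8.86 and 23 CPM with Ento+AZD. It was lower in each number with Ento+AZD and did not overlap DMSO. The fold was 2.78-fold lower (log2 fold change −1.47 ± 0.16, adjusted p = 1.55e-05). PRIM1 shares exon positions with HSD17B6 on the opposite strand and NACA on its own. PRIM2, the large primase subunit, had −0.71 ± 0.10, adjusted p = 8.75e-05, and POLA1, the catalytic polymerase subunit, −0.83 ± 0.15, adjusted p = 0.000506.

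POLA2, the regulatory subunit of polymerase alpha, was the weakest of the 4. Its levels were 37.6, 48.3 and 57.9 CPM with DMSO, 51.4, 40.8 and 68.7 CPM with Ento, 43.4, 35.8 and 52.9 CPM with AZD and 31.8, 22.6 and 45.5 CPM with Ento+AZD. The Ento libraries of replicates 1 and 3 lay above the DMSO libraries of the same numbers, and the Ento+AZD libraries overlapped DMSO. Its log2 fold change was −0.56 ± 0.13, adjusted p = 0.00379 with Ento+AZD against DMSO and −0.70 ± 0.13, adjusted p = 0.00231 against Ento.

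Polymerase delta had changes in both directions with Ento+AZD. POLD3, an accessory subunit, was measured at 35, 36.8 and 62.4 CPM with DMSO, 39.2, 23.7 and 52.8 CPM with Ento, 30.7, 19.2 and 30.8 CPM with AZD and 20.0, 10.7 and 24.9 CPM with Ento+AZD. All Ento+AZD and all AZD libraries lay below all DMSO libraries. It fell 2.47-fold with Ento+AZD (log2 fold change −1.31 ± 0.15, adjusted p = 2.77e-05) and by −0.73 ± 0.15, adjusted p = 0.00457 with AZD. POLD1, the catalytic subunit, fell by a log2 fold change of −0.78 ± 0.12, adjusted p = 0.000165. POLD3 shares exon positions with LIPT2-AS1 on the same strand.

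POLD4, the smallest subunit, which cells degrade when DNA is damaged (chr11:67350772-67356972), moved the other way. It was measured at 222, 214 and 104 CPM with DMSO, 220.1, 265 and 163 CPM with Ento, 202, 271 and 179 CPM with AZD and 312, 372 and 252 CPM with Ento+AZD. All Ento+AZD libraries were above all DMSO libraries, and replicate 3 was the lowest library of each group, where it was the highest for CDT1. The log2 fold change was 0.84 ± 0.12, adjusted p = 0.000151 with Ento+AZD, and it was 0.31 ± 0.12 with AZD and 0.29 ± 0.12 with Ento, neither of which passed the test. POLD2, the scaffold subunit, was measured at 177, 217 and 236 CPM with DMSO, 217, 206 and 267 CPM with Ento, 215, 196 and 245 CPM with AZD and 211, 173 and 232 CPM with Ento+AZD. These values overlapped between all groups, and replicate 1 was higher with Ento+AZD while replicate 2 was lower. Its log2 fold change with Ento+AZD was −0.04 ± 0.09, adjusted p = 0.765.

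Polymerase epsilon was split between its subunits. POLE2, the subunit that joins the polymerase to the helicase (chr14:49643555-49688422), was measured at 14.6, 13 and 25 CPM with DMSO, 13, 7.32 and 22.4 CPM with Ento, 11.5, 5.02 and 12.2 CPM with AZD and 4.55, 2.48 and 7.11 CPM with Ento+AZD. The Ento+AZD libraries and the AZD libraries lay below all DMSO libraries. It fell 3.85-fold with Ento+AZD (log2 fold change −1.95 ± 0.18, adjusted p = 6.82e-06), and by −0.89 ± 0.16, adjusted p = 0.00252 with AZD. POLE, the catalytic subunit, fell by a log2 fold change of −0.38 ± 0.12, adjusted p = 0.0219, and its call was lost without DMSO replicate 2 (adjusted p = 0.144), DMSO replicate 3 (0.0683) or Ento+AZD replicate 2 (0.0944), within a range of 0.000229 to 0.257 over its alternatives. In replicate 1 POLE did not fall with Ento+AZD (log2 ratio of CPM 0.010).

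The small histone-fold subunits POLE3 and POLE4 did not pass the test with Ento+AZD, at 0.19 ± 0.09 and 0.26 ± 0.13. POLE3 was called higher with Ento+AZD once DMSO replicate 2 (adjusted p = 0.0213) or Ento+AZD replicate 2 (0.0191) was left out, within a range of 0.0123 to 0.632 over its alternatives. POLE4 was measured at 16, 11.2 and 11.3 CPM with DMSO, 14.3, 10.6 and 12 CPM with Ento, 18.9, 14.1 and 20.0 CPM with AZD and 17.3, 11 and 18.1 CPM with Ento+AZD. The AZD libraries of replicates 1 and 3 exceeded every DMSO library, while replicate 2 did not. It was higher with AZD than with DMSO (log2 fold change 0.46 ± 0.13, adjusted p = 0.0206) and than with Ento (0.51 ± 0.13, adjusted p = 0.0158). The exons of POLE3 overlap those of C9orf43 on the opposite strand.

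The sliding clamp and the loader RFC were lower throughout with Ento+AZD, 6 of 6 members. PCNA (chr20:5114953-5126626) was measured at 148, 144 and 209 CPM with DMSO, 156, 81.4 and 233 CPM with Ento, 134, 78.7 and 145 CPM with AZD and 78.9, 36.1 and 106 CPM with Ento+AZD. Replicate 3 with Ento was the highest of the 12 libraries and replicate 2 with Ento+AZD the lowest, and the Ento+AZD libraries did not overlap DMSO. It fell 2.46-fold with Ento+AZD (log2 fold change −1.30 ± 0.17, adjusted p = 6.01e-05), and by −0.54 ± 0.17, adjusted p = 0.0333 with AZD. Of the loader, RFC5 (−1.09 ± 0.13, adjusted p = 3.15e-05) and RFC4 fell most.

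RFC4 was measured at 80.9, 82.5 and 120.2 CPM with DMSO, 80.4, 56.9 and 113 CPM with Ento, 66.2, 51.6 and 72.7 CPM with AZD and 49, 32.4 and 58.9 CPM with Ento+AZD. All AZD and all Ento+AZD libraries were below all DMSO libraries. The log2 fold change was −1.04 ± 0.11, adjusted p = 1.71e-05 with Ento+AZD and −0.57 ± 0.11, adjusted p = 0.00339 with AZD. RFC2 had −0.89 ± 0.12, adjusted p = 9.97e-05 and RFC3 −0.68 ± 0.11, adjusted p = 0.000324 with Ento+AZD. RFC1, the large subunit, changed least. Its levels were 193, 190.4 and 259 CPM with DMSO, 227, 149.8 and 255 CPM with Ento, 211, 139 and 208 CPM with AZD and 166, 121 and 189 CPM with Ento+AZD. It was lower in each number with Ento+AZD, with a log2 fold change of −0.45 ± 0.10, adjusted p = 0.00248. Exons of RFC4 overlap EIF4A2 and those of RFC5 overlap WSB2 on the opposite strand.

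The alternative loader that serves sister chromatid cohesion was split. DSCC1 was measured at 43.1, 35.5 and 50.3 CPM with DMSO, 34, 16.9 and 47.6 CPM with Ento, 35.5, 17.6 and 35.1 CPM with AZD and 16.5, 7.24 and 23.1 CPM with Ento+AZD. The Ento+AZD libraries were below all DMSO libraries, and so was each exposed library of replicate 2. Its log2 fold change was −1.58 ± 0.17, adjusted p = 1.9e-05, 2.99-fold lower. Its partner CHTF18 was measured at 30.2, 40.0 and 49.7 CPM with DMSO, 35.9, 31.3 and 47.6 CPM with Ento, 35.1, 35.6 and 44.4 CPM with AZD and 35.9, 27.6 and 41.9 CPM with Ento+AZD. The groups overlapped, replicate 1 being higher and replicates 2 and 3 lower with Ento+AZD. The log2 fold change was −0.18 ± 0.12, adjusted p = 0.233. Without DMSO replicate 1 CHTF18 was called lower (adjusted p = 0.0215, range over its alternatives 0.0215 to 0.925), and its exons overlap GNG13 and RPUSD1 on the opposite strand.

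Of the RPA heterotrimer, which coats single-stranded DNA, only RPA3 passed the test with Ento+AZD against DMSO. This smallest subunit was measured at 67.2, 42.4 and 64.7 CPM with DMSO, 53.1, 23 and 61.3 CPM with Ento, 51, 23.7 and 44.7 CPM with AZD and 32.9, 18.5 and 33.5 CPM with Ento+AZD. Replicate 2 was low in all 4 groups, the DMSO library included, and all Ento+AZD libraries were below all DMSO libraries. Its log2 fold changes were −1.06 ± 0.12, adjusted p = 2.37e-05 with Ento+AZD, −0.59 ± 0.12, adjusted p = 0.00426 with AZD and −0.42 ± 0.12, adjusted p = 0.0443 with Ento. The exons of RPA3 overlap those of UMAD1 on the opposite strand. RPA1, the large DNA-binding subunit, was measured at 201, 221 and 246 CPM with DMSO, 235, 210.2 and 279 CPM with Ento, 218, 209.6 and 234 CPM with AZD and 201, 177 and 227 CPM with Ento+AZD. Its groups overlapped, and replicate 1 with Ento+AZD was nearly equal to replicate 1 with DMSO. The log2 fold change was −0.15 ± 0.08, adjusted p = 0.146, and that of RPA2 was −0.17 ± 0.09, adjusted p = 0.137. With scaling to library totals alone RPA1 (adjusted p = 0.0454) and RPA2 (0.0435) were called lower, as were RPA1 without DMSO replicate 1 (0.0495) and RPA2 without DMSO replicate 3 (0.0317). The ranges over all alternatives were 0.0454 to 0.589 and 0.0317 to 0.501. Exons of RPA1 overlap those of SMYD4 on the opposite strand. The copies RPA2P2 and RPA2P3 took counts equal to 2.82% and 2.21% of those of RPA2.

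All 4 genes of Okazaki fragment processing were lower with Ento+AZD. FEN1, the flap nuclease, was measured at 77, 87.1 and 103 CPM with DMSO, 99.2, 62 and 137 CPM with Ento, 78.6, 54.1 and 99.7 CPM with AZD and 53.2, 26 and 78.6 CPM with Ento+AZD. The Ento+AZD value of replicate 3 lay above the DMSO value of replicate 1, and the Ento values of replicates 1 and 3 lay above the DMSO values of the same numbers. FEN1 had a log2 fold change of −0.88 ± 0.18, adjusted p = 0.00154. Its exons overlap those of FADS2 on the same strand. LIG1, the ligase that seals the fragments, had the largest fall of the 4 (−1.09 ± 0.18, adjusted p = 0.000329).

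DNA2, a nuclease and helicase for long flaps, was measured at 24.5, 23.7 and 36.7 CPM with DMSO, 27.7, 15.9 and 32.8 CPM with Ento, 23.7, 15.2 and 24.9 CPM with AZD and 15.5, 9.05 and 19.7 CPM with Ento+AZD. The Ento+AZD libraries did not overlap DMSO. DNA2 had a log2 fold change of −0.98 ± 0.13, adjusted p = 7.16e-05, and that of RNASEH2A, the catalytic subunit of RNase H2 that removes ribonucleotides, was −0.91 ± 0.13, adjusted p = 9.73e-05. The exons of RNASEH2A overlap those of THSD8 on the same strand.

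Fork protection genes were lower in 4 of 4 cases. WDHD1, also known as AND-1, which links polymerase alpha to the helicase, was measured at 50.7, 50.8 and 85.9 CPM with DMSO, 49.9, 28.8 and 68.6 CPM with Ento, 52, 28.3 and 53.5 CPM with AZD and 27.1, 14.8 and 36.2 CPM with Ento+AZD. All Ento+AZD libraries were below all DMSO libraries, and the AZD libraries overlapped DMSO. Its log2 fold change was −1.32 ± 0.15, adjusted p = 2.04e-05, 2.49-fold lower. CLSPN encodes claspin, the mediator of checkpoint signals at the fork. Its log2 fold change was −1.16 ± 0.24, adjusted p = 0.00189, with changes of −0.81, −2.43 and −0.50 in the 3 numbers (log2 ratios of CPM).

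TIMELESS and TIPIN form the complex that keeps the helicase and the polymerases together. TIMELESS was measured at 166, 150.1 and 233 CPM with DMSO, 203, 96.4 and 258 CPM with Ento, 186, 88.7 and 202 CPM with AZD and 134, 64.6 and 177 CPM with Ento+AZD. The groups overlapped widely, since replicate 3 with Ento+AZD exceeded replicates 1 and 2 with DMSO, and replicate 2 fell from 150.1 to 64.6 CPM. For TIMELESS the log2 fold change was −0.66 ± 0.15, adjusted p = 0.00318, and without the replicate term its adjusted p was 0.37 (range over its alternatives 8.76e-13 to 0.37). TIPIN had −0.80 ± 0.14, adjusted p = 0.000393. Its exons overlap those of RPL9P25 on the same strand.

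CHAF1A and CHAF1B, the members that belong to the chromatin assembly factor CAF-1, which deposits histones behind the fork, were both lower with Ento+AZD. CHAF1B was measured at 16.6, 16.8 and 31.4 CPM with DMSO, 16.1, 10.2 and 26.2 CPM with Ento, 12.5, 6.47 and 17.2 CPM with AZD and 7.19, 2.57 and 11.8 CPM with Ento+AZD. Its Ento+AZD libraries were below all DMSO libraries, and replicate 2 reached the lowest value. It fell 3.23-fold (log2 fold change −1.69 ± 0.20, adjusted p = 2.55e-05), and by −0.88 ± 0.19, adjusted p = 0.00504 with AZD. CHAF1A was measured at 103, 139.9 and 168 CPM with DMSO, 141, 97.9 and 198 CPM with Ento, 106, 84.6 and 138 CPM with AZD and 82.5, 48.5 and 103 CPM with Ento+AZD. Replicate 3 with Ento+AZD was level with replicate 1 with DMSO, so that the groups touched, and each number fell. CHAF1A had a log2 fold change of −0.86 ± 0.16, adjusted p = 0.000742. The exons of CHAF1A overlap UBXN6 on the opposite strand and those of CHAF1B overlap MORC3 on the same strand.

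With AZD alone, 20 of 46 members were lower than with DMSO, compared with 12.7% of all genes tested, and 2 were higher (ORC5 and POLE4), compared with 9.57%. Only CDT1 passed the DEG threshold, against 2.53% of all genes. The 20 were ORC1, CDT1, CDC7, DBF4, TOPBP1, PRIM1, PRIM2, POLD3, POLE2, PCNA, RFC2, RFC4, RFC5, DSCC1, RPA3, LIG1, DNA2, RNASEH2A, WDHD1 and CHAF1B. After CDT1, the lowest values were those of POLE2 (−0.89 ± 0.16), CHAF1B (−0.88 ± 0.19) and ORC1 (−0.86 ± 0.21), and the median over the 46 members was −0.33. The comparisons of AZD and of Ento+AZD share the DMSO libraries, so a likeness between them is not independent.

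The AZD change was not equal in the replicate numbers. Against the DMSO library of the same number, the median member changed by −0.017 in replicate 1, with 24 of 46 below 0, by −0.59 in replicate 2, with 41 below 0, and by −0.37 in replicate 3, with 40 below 0. The count of 20 fell to 12 without DMSO replicate 2, to 12 without AZD replicate 2, to 7 without AZD replicate 3, to 12 without replicate 2 and to 5 without replicate 3, and it was 0 without the replicate term. The count over all genes fell in the same fits, from 2134 to 1974, 1189, 815, 1574 and 658, and to 221 without the replicate term. CDT1 kept an adjusted p below 0.05 in each fit without a library, although its log2 fold change was −0.93 without DMSO replicate 2 and then below the DEG threshold. Neither ORC5 nor POLE4 was called higher without AZD replicate 2, DMSO replicate 3 or AZD replicate 3. With scaling to library totals alone, 2694 genes of all tested were lower and 1135 higher with AZD, against 2134 and 1611.

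With Ento alone, 2 of 46 members were lower than with DMSO, CDT1 and RPA3, compared with 3.66% of all genes tested, and none was higher, compared with 4.66%. No member passed the DEG threshold, against 0.535% of all genes, and 11 members (23.9%) had an unadjusted p below 0.05, close to the 24.3% of all genes. DESeq2 called 4 members and 646 of the 16835 genes lower. The members' median was −0.12 and 35 (76.1%) lay below 0, against 48.3% of all genes. Within numbers the median member changed by 0.078, −0.50 and −0.0070, so that the shift sat in replicate 2, where 43 of 46 were below 0. CDT1 and RPA3 were both below DMSO in 3 of 3 numbers. The count of 2 depended on single libraries. It was 0 without Ento replicate 1, Ento+AZD replicate 1, DMSO replicate 2, Ento replicate 2 or AZD replicate 2, 1 without Ento replicate 3 or Ento+AZD replicate 3, 4 without AZD replicate 1 and 5 without DMSO replicate 1. With scaling to library totals alone, 773 genes of all tested were lower and 641 higher with Ento, against 617 and 784.

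Ento+AZD within numbers gave median changes of −0.51, −1.20 and −0.69 in replicates 1, 2 and 3, with 38, 45 and 41 of the 46 members below 0. In each number it was the lowest of the 3 exposures. The medians over all genes lay no further from 0 than 0.0153 in the 9 comparisons within numbers.

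**Figure D3:**
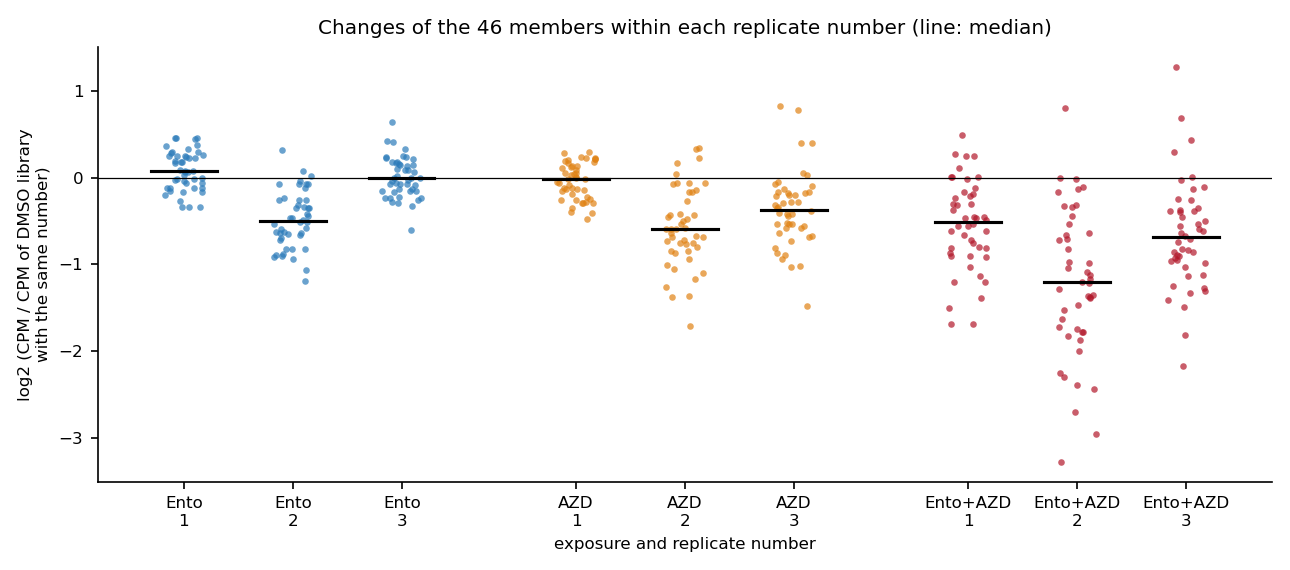
Log2 ratio of CPM in each exposed library to the DMSO library of the same replicate number, with a point for each of the 46 members (jittered sideways) and a line at their median. The medians are near 0 for Ento in replicates 1 and 3 and for AZD in replicate 1, and are lowest in replicate 2 for each exposure.

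Against Ento alone, Ento+AZD left 35 of 46 members lower, compared with 12.2% of all genes tested, and POLD4 higher, compared with 8.27%. The largest falls were in CDT1 (−1.62 ± 0.21, adjusted p = 0.000396), POLE2 (−1.58 ± 0.18, adjusted p = 0.000197) and ORC1 (−1.39 ± 0.22, adjusted p = 0.000913). RPA1, which had not passed against DMSO, passed here (−0.26 ± 0.08, adjusted p = 0.0294). Without the replicate term the count was 0, and without any 1 library or number it lay between 28 and 37. Over all genes the 2047 called lower went to 136 without the replicate term. Without a library or number they ran from 756 (without replicate 3) to 2295 (without DMSO replicate 3).

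Against AZD alone, Ento+AZD left 30 members lower, compared with 6.04% of all genes tested, and POLD4 higher, compared with 5.85%. The 16 members that were not lower were ORC2, ORC4, ORC5, ORC6, TOPBP1, POLD2, POLD4, POLE, POLE3, POLE4, RFC1, CHTF18, RPA1, RPA2, LIG1 and TIMELESS. CDT1 (−1.10 ± 0.22, adjusted p = 0.00668) and POLE2 (−1.05 ± 0.19, adjusted p = 0.00417) fell beyond the DEG threshold again, and DSCC1 (−0.97 ± 0.18), ORC1 (−0.96 ± 0.22) and CLSPN (−0.95 ± 0.24) followed. This count rested on single libraries. It was 5 without AZD replicate 1, 15 without Ento+AZD replicate 1, 12 without AZD replicate 2, 12 without Ento+AZD replicate 2 and 19 without Ento+AZD replicate 3, and it was 2 without all libraries of replicate 1, 17 without those of replicate 3 and 0 without the replicate term. Over all genes the 1016 called lower went to 219, 405, 393, 422 and 532 without these libraries, to 68 and 477 without these numbers and to 3 without the replicate term. POLD4 was not called here without AZD replicate 1, AZD replicate 2 or Ento+AZD replicate 3.

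Between the single agents, 4 members were lower with AZD than with Ento (POLD3, POLE2, RFC3 and RFC4), compared with 8.99% of all genes tested, and POLE4 was higher, compared with 5.73%. The share of members called here was close to that of all genes, and the count of 4 ran from 0 to 11 when 1 library was left out (0 without Ento replicate 1, AZD replicate 2, Ento replicate 3 or AZD replicate 3, 11 without DMSO replicate 2). The members' median was −0.21 and 39 (84.8%) lay below 0, against −0.0061 and 50.9% of all genes. The count was larger with only the compared groups in the fit and with no filter on low counts, as given in the last section. RFC3 had −0.39 ± 0.11, adjusted p = 0.0286, with 192, 129 and 245 CPM with Ento and 146, 118 and 159 CPM with AZD. Its libraries of replicate 2 were nearer to each other than those of the other two numbers.

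Whether the agents together did more than the sum of their separate log2 changes was tested by the interaction term. No member and none of the 16835 genes passed in edgeR (0% of all genes), while 16 of 46 members and 1652 of all genes had an unadjusted p below 0.05. DESeq2 also called 0 members and 7 genes in all. The estimates of the members were below 0 in 45 of 46 cases, with a median of −0.29 against −0.012 for all genes, the exception being POLD4 (0.23 ± 0.17). The lowest estimates were those of CLSPN (−0.90 ± 0.34, adjusted p = 0.449), CDC6 (−0.76 ± 0.27, adjusted p = 0.444), FEN1 (−0.69 ± 0.25) and POLE2 (−0.69 ± 0.25). The estimates share the same 12 libraries and are not separate observations. Without DMSO replicate 2, 12 members were called lower (151 of 17260 genes), and without the filter on low counts 10 (157 of 30891 genes).

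Because members of one complex moved by different amounts, ratios of counts between subunits were formed within each library, where no scaling between libraries enters. These pairs were chosen after the values were seen and are given as a description without a test. The ratio of ORC1 to ORC2 was 0.877, 1.00 and 1.31 with DMSO and 0.434, 0.146 and 0.559 with Ento+AZD. The ratio of CDT1 to its inhibitor GMNN was 1.58, 1.62 and 2.24 with DMSO and 0.891, 0.595 and 0.966 with Ento+AZD. In both pairs the ranges did not overlap, and the mean ratio went from 1.06 ± 0.223 to 0.380 ± 0.212 (SD, n = 3) and from 1.81 ± 0.371 to 0.817 ± 0.196.

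Within polymerase epsilon, the ratio of POLE2 to POLE was 0.188, 0.128 and 0.195 with DMSO and 0.0584, 0.040 and 0.0721 with Ento+AZD, again without overlap. Within polymerase delta, the ratio of POLD4 to POLD1 rose from 2.65, 2.32 and 0.848 to 5.24, 9.13 and 3.26. Each number increased, and the lowest value with Ento+AZD exceeded the highest with DMSO. The RPA3 to RPA1 ratio changed from 0.263 ± 0.0713 to 0.139 ± 0.0306, the PRIM1 to PRIM2 ratio from 1.90 ± 0.182 to 1.14 ± 0.330 and the CHAF1B to CHAF1A ratio from 0.156 ± 0.0337 to 0.0849 ± 0.0307.

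**Figure D4:**
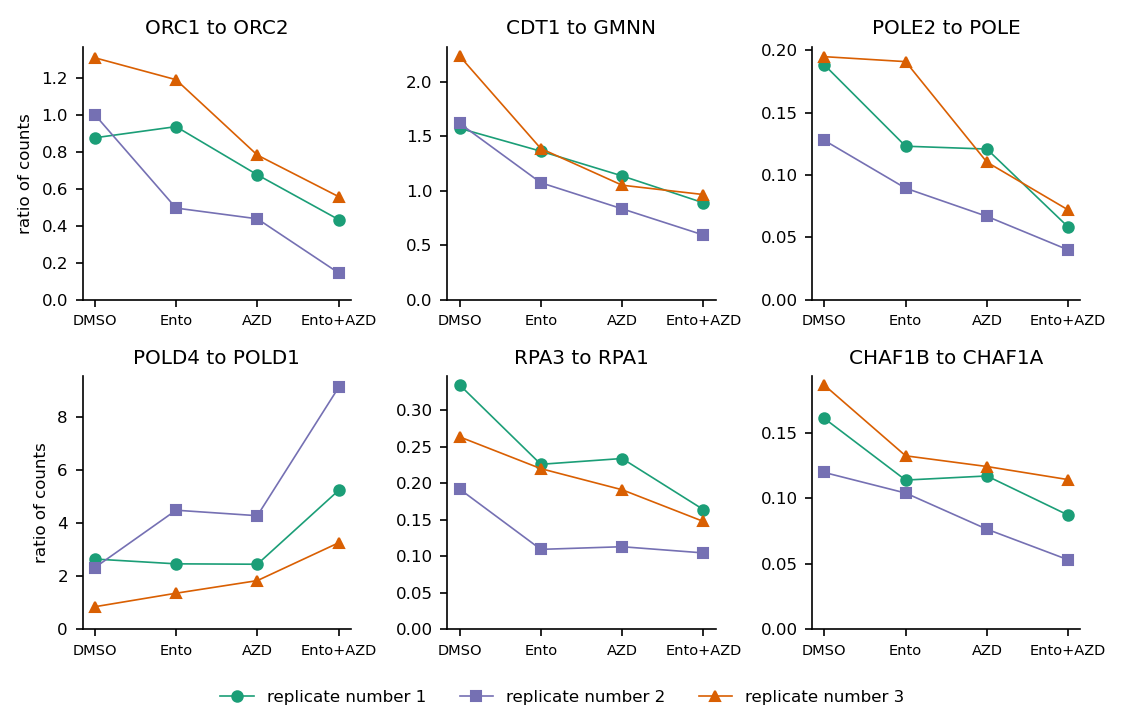
Ratio of raw counts of 2 genes in the same library (vertical axes from 0) for 6 pairs, by exposure, with the 3 replicate numbers joined by lines. ORC1 to ORC2, CDT1 to GMNN and POLE2 to POLE end below every DMSO library with Ento+AZD, and POLD4 to POLD1 ends above every DMSO library.

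The genes that differed most between replicate numbers were also those that moved most with Ento+AZD. For each member the log2 CPM of replicate 2 minus replicate 3 was averaged over the Ento and AZD libraries. The difference had a median of −0.82 and was below 0 in 45 of 46 members, POLD4 being the exception. Over all genes tested its median was 0.01, and 8212 of 16835 lay below 0. In these libraries the numbers 2 and 3 were the lowest and the highest for the family. The sign of the members' median therefore follows from that choice of numbers. Across the 46 members this difference correlated with the mean log2 change of Ento+AZD against DMSO at Pearson's r = 0.93 and Spearman's rho = 0.92, and across all 16835 genes at 0.49 and 0.49. No library enters both measures, but all were scaled together and genes are not independent replicates, so the values are a description and no p is given. CDT1 was lowest on both measures and POLD4 highest on both. The part of the replicate difference in the results was not tested beyond the within-number values above.

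**Figure D5:**
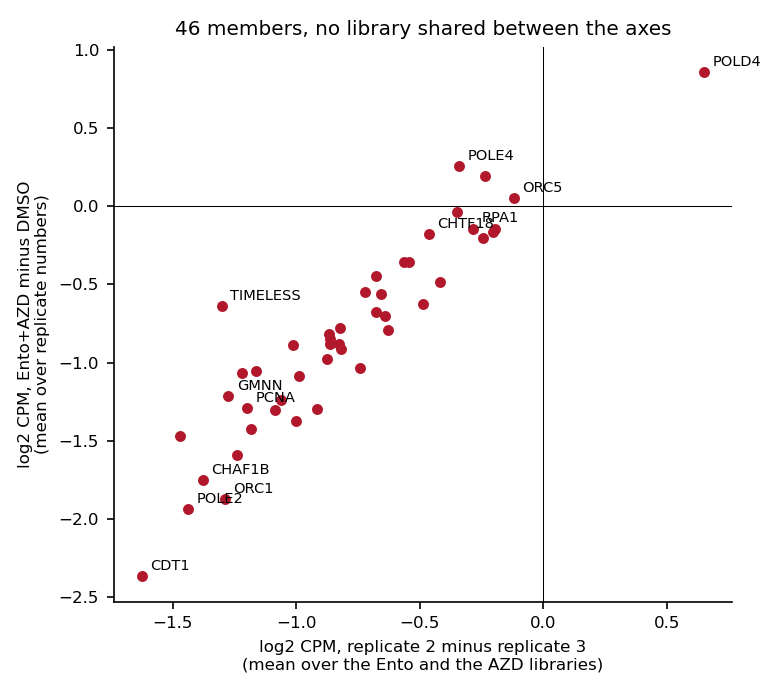
For each of the 46 members, log2 CPM of replicate 2 minus replicate 3 averaged over the Ento and the AZD libraries (horizontal axis) against the mean log2 change of Ento+AZD from DMSO over the 3 numbers (vertical axis). The points run from CDT1 at the lower left to POLD4 at the upper right (Pearson's r = 0.93, n = 46 genes).

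Other replication genes moved in the same comparison. Over all genes tested, 20.8% were called lower with Ento+AZD. Of the 11 subunits of the CMG helicase, 10 were lower with Ento+AZD, with a median log2 fold change of −1.36. The lowest value of these subunits was that of GINS2 (−1.67 ± 0.23, adjusted p = 8.25e-05), and GINS4 did not pass (−0.13 ± 0.10, adjusted p = 0.32). Of 16 further replication genes tested, 13 were lower, with a median of −1.08, and the lowest was DTL, the substrate receptor that marks CDT1 for degradation (−1.92 ± 0.20, adjusted p = 1.55e-05). RNASEH2C, a partner of RNASEH2A, was higher (0.59 ± 0.10, adjusted p = 0.000365). The remaining genes of the 16, RBBP4 and TOP1, are named like RNASEH2C after their values were seen. RBBP4, the histone-binding subunit that CAF-1 shares with other complexes, did not pass (0.06 ± 0.07, adjusted p = 0.528). Nor did TOP1, the topoisomerase that relaxes DNA ahead of the fork (0.06 ± 0.07, adjusted p = 0.52).

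Beside these falls, 3 of these 7 B-cell markers were higher with Ento+AZD, compared with 19.2% of all genes tested. They were CD22 (0.79 ± 0.15, adjusted p = 0.0011), CD79B (0.56 ± 0.12, adjusted p = 0.00159) and CD79A (0.52 ± 0.11, adjusted p = 0.00162). MS4A1 (0.23 ± 0.10), BCL6 (0.21 ± 0.10), PAX5 (0.05 ± 0.08) and MME (−0.11 ± 0.09) did not pass. With Ento alone CD79B (0.55 ± 0.11, adjusted p = 0.0107), CD79A (0.42 ± 0.11, adjusted p = 0.0266) and MME (0.36 ± 0.09, adjusted p = 0.0322) were higher, compared with 4.66% of all genes tested. With AZD alone CD22 was higher (0.62 ± 0.15, adjusted p = 0.0114) and MME lower (−0.37 ± 0.09, adjusted p = 0.0139), where 9.57% of all genes tested were higher and 12.7% lower. The summed level of the 7 ranged from 4783 to 6839 CPM with DMSO, 5211 to 8383 CPM with Ento, 5851 to 8142 CPM with AZD and 6249.5 to 8227 CPM with Ento+AZD. The part of these levels in the falls of the replication factors was not tested.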

How the data were processed

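Poly-A RNA of 12 SU-DHL-4 samples was sequenced as single reads. The authors trimmed these with CutAdapt (via TrimGalore), used GRCh38.p13 as the genome and obtained feature counts with Rsubread. The submitters' processing notes list hg19 beside GRCh38.p13, without saying what it was used for. The deposited table gives these counts per gene symbol as whole numbers before any normalization. Which annotation release was used, whether counting used the strand and how reads with several matches were handled are not given in the sources used here. A deposited table of log2 values from the same counts was not used.

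Counts were analysed with edgeR 4.0.16 in R 4.3.3. Genes with low counts were removed by group with filterByExpr (minimum count 10, minimum total 15), followed by TMM normalization. The model was fitted to all 12 libraries without intercept, with terms for the treatment group and for the replicate number. For each of 7 contrasts the quasi-likelihood test was run, and p-values were Benjamini-Hochberg adjusted over 16835 genes. A gene was called at an adjusted p below 0.05 and counted as a DEG when its absolute log2 fold change also exceeded 1. Values after ± are SDs for levels and standard errors for log2 fold changes, the latter derived from the F statistic. Medians and counts over genes of changes within a replicate number used log2(CPM + 0.1), while the plot and the values of single members used the log2 ratio of CPM. Copies were found by pseudogene symbol. Coordinates, exon overlaps and transcript lengths are from GENCODE release 44 on GRCh38.

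The replicate numbers come from the sample labels. To check their pairing, deviations from the group means were correlated over all genes, which gave 0.213 to 0.703 for libraries of equal number (18 pairs) and −0.627 to 0.325 for the others (36 pairs), and the numbers were taken as pairing. Libraries of a group differed by more than sampling noise (chi-square per degree of freedom 8.21 to 48.5), so each was kept as a sample of its own.

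Described library by library were the members with the smallest and the largest p of each role with Ento+AZD, each member called higher in any comparison, and CDT1, GMNN, CDC6, PCNA and CHAF1B for their roles. The members and lists were chosen with earlier results of these data known. Alternatives were a model without the replicate term, only the compared groups in the fit, RLE size factors, library totals, no filter on low counts, DESeq2 1.42.0 and leaving out each library. Leaving out each replicate number was added after seeing the data. The procedure was tested on simulated data without differences between replicate numbers, so that test does not bear on the replicate term. CHTF8, a further replication gene on the lists, had no counts. A further B-cell marker is not reported here.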

Additional observations from a re-analysis of the deposited data

How the results depend on the processing

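In the fit with no replicate block, members called lower went from 36 to 10 with Ento+AZD against DMSO (DEGs from 17 to 8), from 20 to 0 with AZD (DEGs from 1 to 0), from 2 to 0 with Ento, from 35 to 0 against Ento, from 30 to 0 against AZD and from 4 to 0 between the single agents, and the members called higher (1, 2, 1, 1 and 1 in these comparisons other than Ento) went to 0. Calls lower over all genes went from 3504 to 1311 with Ento+AZD, 2134 to 221 with AZD and 617 to 10 with Ento. They went from 2047 to 136 against Ento, from 1016 to 3 against AZD and from 1514 to 371 between the single agents. The cause was not tested. With only the compared groups in the fit, 5 members were lower with Ento, 1 was higher with AZD, and 19 were lower and 2 higher with AZD against Ento. These fits called 646 of 16414 genes lower with Ento and 896 of 16204 genes higher with AZD. They called 2170 of 16032 genes lower and 1737 higher with AZD against Ento. With no filter on low counts, 7 members were lower and 1 higher with Ento, 14 were lower with AZD against Ento, and 10 were lower in the interaction. Of the 30891 genes then tested, 1087 were lower and 1207 higher with Ento. Lower were also 1975 of them with AZD against Ento and 157 in the interaction. DESeq2 gave 4 lower with Ento (646 of 16835 genes), and library totals gave 1 higher with AZD (1135 of 16835 genes).

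Leaving out a library or a replicate number gave 0 to 5 lower, 0 to 2 higher and 0 DEGs with Ento, 5 to 30 lower, 0 to 3 higher and 0 to 4 DEGs with AZD, 34 to 38 lower, 1 to 2 higher and 10 to 23 DEGs with Ento+AZD, 28 to 37 lower and 1 to 2 higher against Ento, 2 to 33 lower and 0 to 1 higher against AZD, 0 to 11 lower and 0 to 2 higher between the single agents, and 0 to 12 lower and 0 higher in the interaction. With a library left out, the remaining libraries of its group were taken to vary like the others.

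No member called in edgeR reversed its sign under any of these alternatives. Among members not called with Ento+AZD, the log2 fold change of ORC5 changed sign with library totals (−1.959e-04), without DMSO replicate 3 (−0.038), without Ento+AZD replicate 3 (−0.020) and without replicate 3 (−0.065, against 0.12 without replicate 2), and that of POLD2 without DMSO replicate 2 (0.080), without Ento+AZD replicate 2 (0.041) and without replicate 2 (0.099, against −0.18 without replicate 1). The interaction could not be fitted with only the compared groups, since it uses all 4. At these depths every member held at least 52 counts in each library, so the spread between libraries rather than counting limits the precision.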
